A study of Homo sapiens with 8 samples.

Results

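The transcription core of the integrated stress response (ISR) is described here through 10 genes taken by symbol, which are *ATF4*, *CEBPB*, *CEBPG*, *ATF3*, *DDIT3*, *TRIB3*, *PPP1R15A*, *PPP1R15B*, *CHAC1* and *ADM2*. All 10 were among the 58219 genes listed for each library, and all 10 passed the filter on low counts that left 13129 protein-coding genes for testing. RNA came from H929 and KMS11 cells, established multiple myeloma (MM) cell lines that both carry the *t*(4;14) translocation, treated for 24 h with 2 µM fluvastatin, a statin that inhibits HMG-CoA reductase, or with ethanol, its solvent. The 4 groups of line and treatment held 2 biological replicates each, and the 8 stranded libraries were made from total RNA. With 1 line on either side, a difference between H929 and KMS11 is a difference between these lines, and batches of the lines, if any, cannot be told apart from the lines themselves.

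In the ISR, stress-sensing kinases phosphorylate the translation factor eIF2α, which lowers general protein synthesis while the mRNA encoding the transcription factor ATF4 is translated more. ATF4 pairs with C/EBP proteins on composite C/EBP-ATF DNA elements and induces genes of amino acid supply and redox balance, further transcription factors such as CHOP (*DDIT3*), and the phosphatase subunit GADD34 (*PPP1R15A*), which helps to reverse the phosphorylation. Plasma cells and MM cells secrete large amounts of immunoglobulin, and the arm of this response that begins at the endoplasmic reticulum is well studied in them. Since ATF4 is largely controlled at translation, the level of its mRNA is not a measure of the protein.

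Total expected counts, the fragments that RSEM assigned to genes, ranged from 26702515 to 41910446 per library, and protein-coding genes took between 85.2% and 91.4% of them. Of 8 plasma cell markers, 8 had a mean of at least 1 TPM (a level that RSEM scales by transcript length and library) in H929 and 7 in KMS11, where *CD38* lay between 0.01 and 0.04 TPM. *FGFR3* and *NSD2*, the genes at the *t*(4;14) breakpoint, were expressed in both lines. Of 12 markers of other cells, 3 (*CD14*, *COL1A2* and *PPBP*) were at 0 in every library. *EPCAM* lay between 30.2 and 35.9 TPM in KMS11, and *PECAM1* between 5.87 and 7.98 TPM in H929. The T cell marker *CD3E* rose with fluvastatin in H929, from 1.49 and 1.59 to 2.92 and 3.54 TPM (log2 fold change 1.13, adjusted p = 0.0031 in edgeR), while *CD3D* was at 0 in 3 of the 4 H929 libraries and at 0.15 TPM in the other. The *CD3E* response was lower in KMS11 (-1.69, adjusted p = 0.014). The summed plasma cell markers went from between 1084 and 1216 TPM to between 958.5 and 1009 TPM in H929, and from between 515.9 and 548 TPM to between 411.8 and 455.2 TPM in KMS11. In H929 4 of the 8 were lower (*SDC1*, *MZB1*, *SLAMF7* and *POU2AF1*, by log2 fold changes of -1.08 to -0.59) and *PRDM1* was higher (0.32). Of all tested genes, 19.3% were called lower and 22.7% higher in that line. In KMS11 edgeR and DESeq2 called 0 of the markers, and 1 had an unadjusted p under 0.05 (lower). There edgeR called 0.533% of all tested genes lower and 2.58% higher. The part of these markers in the results below was not tested. In bulk RNA, fewer cells with a transcript and less of it per cell cannot be told apart.

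In H929, 9 of the 10 genes were higher with fluvastatin and 0 were lower, where 22.7% of all tested genes were called higher and 19.3% lower. In KMS11, *ATF3*, *DDIT3*, *PPP1R15A* and *CHAC1* were higher and 0 of the 10 were lower, where 2.58% of all tested genes were called higher and 0.533% lower. Replicates were furthest apart in KMS11 with fluvastatin. Over 5561 well-expressed genes the SD of their log2 ratio was 0.252 there and 0.126 in KMS11 with ethanol. In H929 it was 0.179 with ethanol and 0.182 with fluvastatin. The part of this spread in the number of KMS11 calls was not tested. A gene was called at an adjusted p under 0.05, where p came from the quasi-likelihood test of edgeR and was adjusted by the Benjamini-Hochberg method over all 13129 genes. DESeq2 called 6 genes higher in KMS11, *TRIB3* (adjusted p = 0.042) and *ADM2* (adjusted p = 0.00015) beside these 4, and 9 in H929, and 7 were higher in KMS11 at an unadjusted p under 0.05. The number lower was also 0 in either line at an unadjusted p under 0.05 and with DESeq2. In each line both fluvastatin libraries lay above both ethanol libraries for the same 9 genes and below them for *PPP1R15B*. Among all tested genes, 37.5% lay above in this way in H929 and 26.9% in KMS11, and 33.5% and 26.5% lay below. The median log2 fold change of the 10 genes was 1.15 in H929 and 0.76 in KMS11, beside medians of 0.02 and 0.00 over all tested genes.

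**Figure D1:**
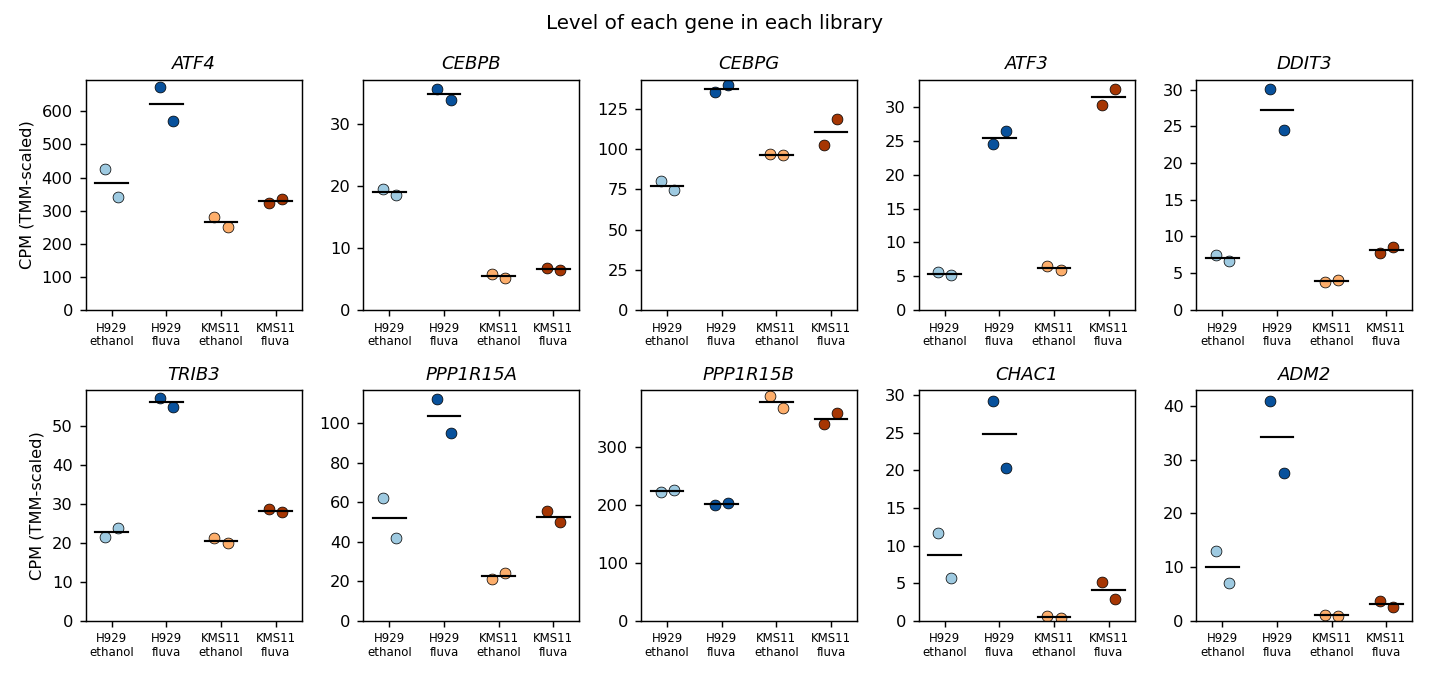
Level of each gene in each library, as counts scaled by edgeR's TMM method to a common library size (CPM), with 1 point per library, a bar at the mean of the 2 libraries of a group, and a linear axis from 0 in each panel ("fluva" is fluvastatin). In 9 panels both fluvastatin points of a line sit above both of its ethanol points, and in the *PPP1R15B* panel they sit below, for example at 199 and 202 CPM against 223 and 226 CPM in H929.

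The sequences just before the genes' start sites are shown because these are where ATF4 and its partners are known to bind at several ISR genes. The 1000 bases before each gene's canonical start were searched on both strands of hg38, the build of the files, for the core of the C/EBP-ATF element, TGATGNAA (TTNCATCA on the other strand), and for the cyclic AMP response element TGACGTCA. No occurrence of one overlapped the other. The first was found before *ATF3*, *CHAC1*, *DDIT3* and *PPP1R15B*, and the second before *PPP1R15A*. Each is printed 5′ to 3′ on the strand of its gene, with the motif in capitals.
ATF3, far site: cctccccgaacTTGCATCAccagtgccccc
ATF3, near site: tataaaaggggTGATGCAAcgctctccaag
CHAC1: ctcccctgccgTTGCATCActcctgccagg
DDIT3: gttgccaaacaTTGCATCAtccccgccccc
PPP1R15B: cccgccccggcTGATGCAAcctcacgctgc
PPP1R15A: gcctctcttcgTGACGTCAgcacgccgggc
The motifs of the *ATF3* sites (printed from chr1:212608547-212608576 and chr1:212608729-212608758, plus strand) ended 196 and 14 bases before the start, in an intron and an exon of other *ATF3* transcripts. The *CHAC1* site (chr15:40953251-40953280, plus strand) lay 202 bases before the start, in a UTR of another *CHAC1* transcript. The *DDIT3* site (chr12:57520802-57520831, minus strand) lay 299 bases before the start, in an intron of *DDIT3* and within *MBD6*. The *PPP1R15B* site (chr1:204412026-204412055, minus strand) lay 220 bases before the start, in exons of antisense noncoding RNAs. The *PPP1R15A* site (chr19:48872352-48872381, plus strand) lay 51 bases before the start, in a UTR of another transcript. TGATGNAA was thus found in 40% of the 10 windows and in 11.3% of the windows of all 19683 protein-coding genes, and TGACGTCA in 10% and 3.37%. Such a match is a string of letters and not a measured binding site, and *PPP1R15B*, which has one, was the gene that was not called with fluvastatin in either line.

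*ATF4* (ENSG00000128272.14, chr22:39519695-39522683, plus strand) encodes the transcription factor at the centre of the response. In H929 it stood at 425 and 342 CPM with ethanol and at 675 and 571 CPM with fluvastatin. In KMS11 it stood at 282 and 249 CPM with ethanol and at 325 and 334 CPM with fluvastatin. The groups did not overlap in either line, but the step was smaller in KMS11. *ATF4* rose by a log2 fold change of 0.70 in H929 (SE 0.13, adjusted p = 0.0017), a 1.62-fold change. In KMS11 the log2 fold change was 0.31 (95% interval 0.03 to 0.59, adjusted p = 0.19), which did not pass the threshold. Its expected counts were fractional in all 8 libraries, and the processed pseudogenes of *ATF4* held at most 22.6 counts each against at least 8549 for *ATF4*.

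*CEBPB* (ENSG00000172216.5, chr20:50190830-50192668, plus strand) and *CEBPG* (ENSG00000153879.8, chr19:33373685-33382686, plus strand) encode C/EBPβ and C/EBPγ, dimer partners of ATF4. In H929, *CEBPB* went from 19.4 and 18.6 CPM to 35.6 and 33.9 CPM, a log2 fold change of 0.87 (SE 0.13, adjusted p = 0.00050). *CEBPG* went from 80.0 and 74.7 CPM to 135 and 140 CPM in that line, a log2 fold change of 0.83 (SE 0.10, adjusted p = 0.00014). Both therefore rose in H929 by amounts close to that of *ATF4*. In KMS11, *CEBPB* stood at 5.74 and 5.09 CPM with ethanol and at 6.68 and 6.45 CPM with fluvastatin (log2 fold change 0.28, SE 0.14, adjusted p = 0.27). *CEBPG* stood there at 97.1 and 96.3 CPM and at 103 and 119 CPM (0.20, SE 0.10, adjusted p = 0.26). Neither passed the threshold in KMS11. With the GC trend of each library removed, an alternative chosen after seeing the data, *CEBPB* turned to -0.31 there (adjusted p = 0.38) and *CEBPG* passed (0.28, adjusted p = 0.033). *CEBPB* overlaps the antisense gene *CEBPB-AS1*, and the strand setting of the counting is not given in the sources used here.

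*ATF3* (ENSG00000162772.16, chr1:212565334-212620777, plus strand) encodes a stress-inducible transcription factor that ATF4 induces and that also represses some ISR genes. It went from 5.58 and 5.16 CPM to 24.5 and 26.5 CPM in H929, and from 6.55 and 5.88 CPM to 30.4 and 32.7 CPM in KMS11. In CPM the lines thus stood close together, while *ATF3* was at 7.41 TPM in H929 and 13.4 TPM in KMS11 with fluvastatin. The lines as a whole also differed between these scales. In ethanol the median log2 difference of all tested genes, KMS11 against H929, was 0.31 on log2(TPM + 1) and -0.02 in edgeR. *ATF3* rose by a log2 fold change of 2.24 in H929 (SE 0.14, adjusted p = 4.5e-06) and of 2.34 in KMS11 (SE 0.14, adjusted p = 2.4e-05). These are 4.74-fold and 5.07-fold changes. The difference between the lines was 0.10 on the log2 scale (95% interval -0.33 to 0.53). The effective length that RSEM gave *ATF3*, which follows the mix of its transcripts, moved with the treatment in H929, from between 1307 and 1362 bases with ethanol to between 1519 and 1692 bases with fluvastatin, and its part in the result was not tested.

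*DDIT3* (ENSG00000175197.11, chr12:57516588-57521737, minus strand) encodes CHOP, a transcription factor linked to cell death under prolonged stress. In H929 it went from 7.42 and 6.72 CPM to 30.0 and 24.5 CPM, and in KMS11 from 3.78 and 4.10 CPM to 7.80 and 8.56 CPM. All fluvastatin libraries were above the ethanol libraries of their line. In CPM the KMS11 libraries with fluvastatin reached about the H929 level with ethanol. In TPM they lay above it, at 5.71 and 7.36 against 4.62 and 4.12. *DDIT3* rose 3.85-fold in H929 (log2 fold change 1.95, SE 0.16, adjusted p = 2.2e-05) and 2.08-fold in KMS11 (1.05, SE 0.17, adjusted p = 0.0093). The KMS11 call was lost without KMS11 ethanol replicate 1 (log2 fold change 0.97, adjusted p = 0.15) or replicate 2 (1.08, adjusted p = 0.098). *DDIT3* overlaps *MARS1* and *MBD6* on the other strand and shares its strand with a read-through gene and *MIR616*. Its expected counts were fractional in 0 libraries, and whether any of its fragments were assigned elsewhere was not tested.

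*TRIB3* (ENSG00000101255.10, chr20:362835-397559, plus strand) encodes a pseudokinase that CHOP and ATF4 induce and that restrains ATF4 activity. In H929 it went from 21.5 and 23.8 CPM to 57.2 and 54.8 CPM, a log2 fold change of 1.31 (SE 0.11, adjusted p = 2.5e-05). In KMS11 it went from 21.2 and 19.9 CPM to 28.6 and 27.9 CPM, a log2 fold change of 0.46 (SE 0.11, adjusted p = 0.056). The KMS11 groups did not overlap, but the change missed the threshold. It was called in 4 of 18 alternatives, over which its log2 fold change ran from 0.06 to 0.48. Without KMS11 fluvastatin replicate 2 it was 0.43. The lines stood at like levels with ethanol and apart with fluvastatin, at 56.0 ± 1.73 CPM in H929 and 28.2 ± 0.45 CPM in KMS11 (SD, n = 2).

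*PPP1R15A* (ENSG00000087074.7, chr19:48872212-48876059, plus strand) and *PPP1R15B* (ENSG00000158615.8, chr1:204396492-204411887, minus strand) encode GADD34 and CReP, the inducible and the constitutive subunit that direct protein phosphatase 1 to eIF2α. *PPP1R15A* went from 62.2 and 42.1 CPM to 112 and 94.9 CPM in H929, and from 21.1 and 24.3 CPM to 55.4 and 49.9 CPM in KMS11. It rose by a log2 fold change of 0.99 in H929 (SE 0.17, adjusted p = 0.0014) and of 1.21 in KMS11 (SE 0.18, adjusted p = 0.0059). The KMS11 call was lost without KMS11 ethanol replicate 1 (1.09, adjusted p = 0.10) or replicate 2 (1.29, adjusted p = 0.054). *PPP1R15B* stood at 223 and 226 CPM with ethanol and at 199 and 202 CPM with fluvastatin in H929, and at 388 and 368 CPM and at 339 and 359 CPM in KMS11. Its log2 fold changes were -0.16 in H929 (95% interval -0.35 to 0.03, adjusted p = 0.15) and -0.12 in KMS11 (95% interval -0.30 to 0.07, adjusted p = 0.44), and neither passed the threshold. With the GC trend removed it was lower in H929 (-0.28, adjusted p = 0.0028). *PPP1R15B* overlaps the antisense gene *PPP1R15B-AS1*. Per length, the ratio of *PPP1R15A* to *PPP1R15B* TPM went from 0.652 and 0.436 to 1.32 and 1.10 in H929, and from 0.127 and 0.155 to 0.385 and 0.325 in KMS11. Per length, the mRNA of the inducible subunit thus exceeded that of the constitutive one in both H929 libraries with fluvastatin. It stayed below it in every KMS11 library.

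*CHAC1* (ENSG00000128965.11, chr15:40952962-40956512, plus strand) encodes an enzyme that degrades glutathione, and *ADM2* (ENSG00000128165.8, chr22:50481543-50486440, plus strand) a secreted peptide hormone of the calcitonin family, both known targets of ATF4. In H929, *CHAC1* went from 11.7 and 5.68 CPM to 29.2 and 20.4 CPM, and *ADM2* from 12.97 and 7.002 CPM to 40.9 and 27.6 CPM. Both rose there, *CHAC1* by a log2 fold change of 1.51 (SE 0.36, adjusted p = 0.0080) and *ADM2* by 1.77 (SE 0.29, adjusted p = 0.00096). Their replicates were further apart than those of the transcription factors. In KMS11 both were close to the limit of this depth, with 23 and 12 counts of *CHAC1* and 42 and 33 counts of *ADM2* in the ethanol libraries. With fluvastatin *CHAC1* had 144 and 108 counts and *ADM2* 99 and 99. *CHAC1* rose by a log2 fold change of 3.07 in KMS11 (SE 0.50, adjusted p = 0.011), the largest value of the 10 genes in either line and the one with the widest interval, 1.96 to 4.19. Without KMS11 ethanol replicate 1 it was 3.54 (adjusted p = 0.077), and without replicate 2 it was 2.68 (adjusted p = 0.13). *ADM2* had a log2 fold change of 1.60 in KMS11 (SE 0.37, adjusted p = 0.052), just short of the threshold. It was called in 10 of 18 alternatives, over which its log2 fold change ran from 0.32 to 1.79. Leaving out 1 library at a time gave values from 1.36 to 1.79. *ADM2* overlaps *SBF1* on the other strand.

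**Figure D2:**
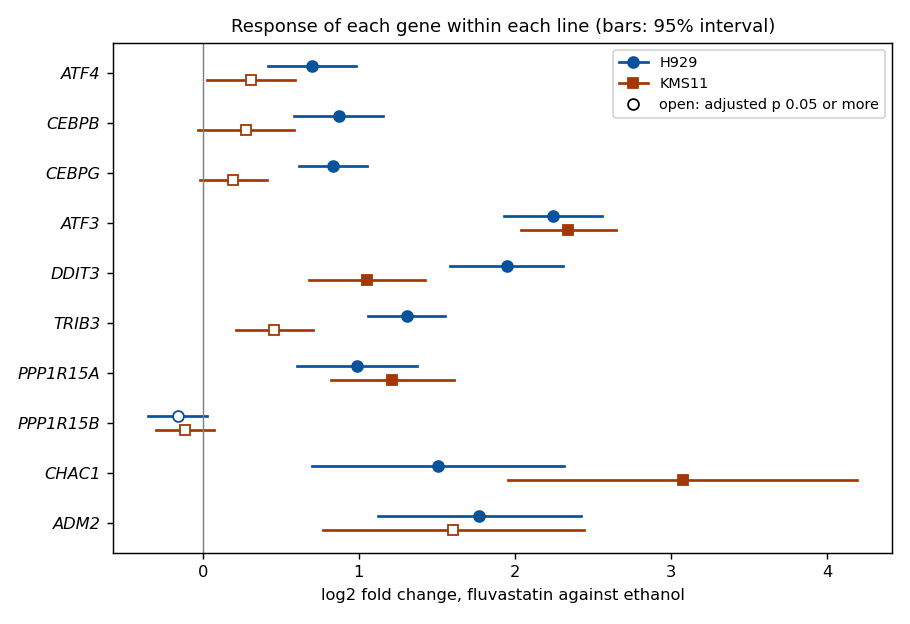
Log2 fold change of fluvastatin against ethanol for each gene within H929 (circles) and KMS11 (squares), with 95% intervals from edgeR. Filled symbols passed an adjusted p of 0.05, as 9 genes did in H929 and 4 in KMS11, and *PPP1R15B* lies at -0.16 and -0.12.

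With the lines fitted together and a term for the line, 9 of the 10 genes were higher with fluvastatin and 0 were lower, where 6.5% of all tested genes were called higher and 3.93% lower. The log2 fold changes of the 9 genes ran from 0.50 for *ATF4* through 0.51 for *CEBPG*, 0.59 for *CEBPB*, 0.88 for *TRIB3*, 1.10 for *PPP1R15A*, 1.51 for *DDIT3*, 1.71 for *ADM2* and 2.13 for *CHAC1* to 2.29 for *ATF3*. *PPP1R15B* was at -0.14 (SE 0.07, adjusted p = 0.20), and the number lower was also 0 at an unadjusted p under 0.05 and with DESeq2. *ATF3*, *DDIT3*, *PPP1R15A* and *ADM2* were called without any 1 library. The other 5 calls depended on single libraries and were also lost with a block for the replicate number. On leaving out H929 ethanol replicate 2 or H929 fluvastatin replicate 1, 4 genes were called higher. The number was 5 on leaving out either of the other H929 libraries, 6 on leaving out KMS11 ethanol replicate 2, and 8 on leaving out KMS11 ethanol replicate 1 or KMS11 fluvastatin replicate 2. Of the 9, *CEBPG* was nearest to the threshold (adjusted p = 0.044) and kept its call only without KMS11 fluvastatin replicate 1. Within H929 the same 9 genes were called without any 1 library. Within KMS11 the number was 1, which was *ATF3*, without either KMS11 ethanol library and 6 without KMS11 fluvastatin replicate 2.

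The response differed between the lines for *DDIT3*, *CEBPB*, *CEBPG* and *TRIB3*, all of which rose less in KMS11, by a test of the difference itself. That is 4 of 10 lower in KMS11 and 0 higher, where 11.5% of all tested genes were lower and 11.7% higher. At an unadjusted p under 0.05 1 gene was higher, and with DESeq2 1. *TRIB3* differed by -0.85 on the log2 scale (SE 0.16, adjusted p = 0.0048) and was called without any 1 library. *DDIT3* differed by -0.89 (SE 0.23, adjusted p = 0.021), and the call was lost without H929 ethanol replicate 2, H929 fluvastatin replicate 1 or either KMS11 ethanol library (adjusted p between 0.063 and 0.084). *CEBPG* differed by -0.64 (SE 0.14, adjusted p = 0.0097), and the call was lost without KMS11 ethanol replicate 1 (adjusted p = 0.065) or replicate 2 (adjusted p = 0.054). *CEBPB* differed by -0.59 (SE 0.19, adjusted p = 0.045), a call that was lost without any 1 of the 8 libraries (adjusted p between 0.053 and 0.19). The number called lower was 1 without either KMS11 ethanol library, 2 without H929 ethanol replicate 2 or H929 fluvastatin replicate 1, and 3 without any 1 of the others. The difference for *ATF4* itself was -0.39 (95% interval -0.79 to 0.01, adjusted p = 0.14), and it passed with the GC trend removed (-0.57, adjusted p = 0.0097). *CHAC1* had the only large positive difference, 1.57 (95% interval 0.16 to 2.97, adjusted p = 0.097). Leaving out 1 library at a time gave values of this difference from 0.95 to 2.07, and on log2(TPM + 1) it was -0.18. In KMS11 with ethanol it rests on 23 and 12 counts. *PPP1R15A* (0.23, 95% interval -0.32 to 0.77), *PPP1R15B* (0.05, -0.22 to 0.31) and *ADM2* (-0.17, -1.25 to 0.92) had differences on either side of 0 within their intervals.

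The lines differed in most of these genes without the statin. In ethanol, 6 of the 10 were lower in KMS11 than in H929 and 2 were higher, where 36.4% of all tested genes were lower and 35.6% higher, so that calls in this comparison are common. The low end was held by *CHAC1*, at a log2 difference of -4.21 (SE 0.49, adjusted p = 2.9e-05), and by *ADM2*, at -3.32 (SE 0.35, adjusted p = 1.7e-05). *CEBPB* (-1.81), *PPP1R15A* (-1.20), *DDIT3* (-0.84) and *ATF4* (-0.53) were also lower, with adjusted p between 1.4e-06 and 0.0035. *PPP1R15B* was higher in KMS11 by 0.75 (SE 0.08, adjusted p = 2.3e-05) and *CEBPG* by 0.32 (SE 0.10, adjusted p = 0.012). The *CEBPG* call was lost without H929 ethanol replicate 2 (adjusted p = 0.081), KMS11 ethanol replicate 1 (0.073) or replicate 2 (0.062). *ATF3* (0.21, adjusted p = 0.21) and *TRIB3* (-0.14, adjusted p = 0.27) were not called. The scale mattered for the size of the differences and for some calls. On log2(TPM + 1) *CHAC1* was at -1.65, *ADM2* at -0.86, *CEBPB* at -0.98 and *PPP1R15A* at -0.59. *PPP1R15B* was at 1.23 and *CEBPG* at 0.79 on that scale, and all of these kept their calls. On log2(TPM + 1) the median of all tested genes moved from -0.02 to 0.31, and there *ATF4* was at 0.00 (adjusted p = 0.99) and *TRIB3* at 0.32 (adjusted p = 0.045), which relative to that median are -0.31 and 0.01, while *DDIT3* was at -0.27 and lost its call (adjusted p = 0.15). *ATF3* was then called at 0.38 (adjusted p = 0.033), which is 0.07 relative to the median. With the GC trend removed *TRIB3* was called higher in KMS11 (0.72, adjusted p = 0.0022) and *CEBPG* was at -0.02 (adjusted p = 0.84).

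**Figure D3:**
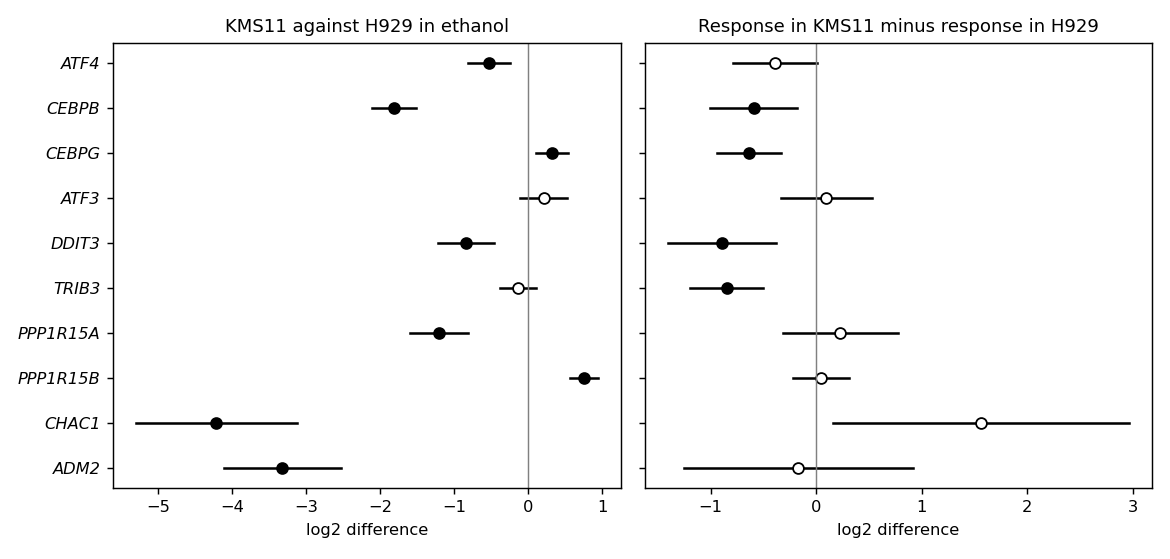
Log2 difference of KMS11 against H929 in ethanol (left) and of the response to fluvastatin in KMS11 minus that in H929 (right), with 95% intervals from edgeR and filled circles where the adjusted p was under 0.05. *CHAC1* and *ADM2* lie at -4.21 and -3.32 on the left, and *DDIT3*, *TRIB3*, *CEBPG* and *CEBPB* lie at -0.89, -0.85, -0.64 and -0.59 on the right.

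Compared per length, *ATF4* was the most abundant of the 10 in every group, at 142 ± 23.1 TPM in H929 with ethanol, 232 ± 24.2 with fluvastatin, 142 ± 19.7 in KMS11 with ethanol and 160 ± 14.8 with fluvastatin (SD, n = 2). *ADM2* was the least abundant in every group, from 0.165 ± 0.035 TPM in KMS11 with ethanol to 3.89 ± 1.02 in H929 with fluvastatin (SD, n = 2). In H929 with ethanol the order from *ATF4* down was *PPP1R15B* (20.8), *PPP1R15A* (11.3), *CEBPG* (9.76), *CEBPB* (4.99), *TRIB3* (4.58), *DDIT3* (4.37), *CHAC1* (3.03), *ATF3* (1.89) and *ADM2* (1.14). The libraries of *PPP1R15A* and *CEBPG*, of *TRIB3* and *DDIT3*, and of *CHAC1* and *ATF3* overlapped. With fluvastatin *PPP1R15A* (22.4) passed *PPP1R15B* (18.6), and *DDIT3* (17.0) drew level with *CEBPG* (17.4), from which its libraries were no longer apart. In KMS11 with ethanol the order below *ATF4* was *PPP1R15B* (50.2), *CEBPG* (17.6), *PPP1R15A* (7.03), *TRIB3* (5.98), *DDIT3* (3.44), *ATF3* (2.77), *CEBPB* (2.05), *CHAC1* (0.240) and *ADM2* (0.165), where only the libraries of the last pair overlapped. With fluvastatin *ATF3* (13.4) rose past *TRIB3* (7.47) and *DDIT3* (6.54), whose libraries then overlapped, as did those of *CEBPB* (2.25) and *CHAC1* (1.81). The balance of the ATF4 partners can be read as a ratio. The ratio of *CEBPB* to *CEBPG* TPM was 0.511 ± 0.009 with ethanol and 0.526 ± 0.031 with fluvastatin in H929, and 0.116 ± 0.009 and 0.124 ± 0.015 in KMS11 (SD, n = 2). In either line the step was smaller than the larger of the SDs.

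Around these genes, 4 lists were read as a whole. Of 44 further ATF4 targets 41 were tested. In H929 27 were higher and 1 lower with fluvastatin (median log2 fold change 0.74), beside 22.7% higher and 19.3% lower of all tested genes. In KMS11 7 were higher and 0 lower (0.27), beside 2.58% and 0.533%, and across both lines 16 were higher and 0 lower (0.53), beside 6.5% and 3.93%. Those of smallest adjusted p across both lines were *SLC6A9*, a glycine transporter (1.79, adjusted p = 0.0025), *SESN2*, a stress-inducible inhibitor of mTORC1 (1.64, adjusted p = 0.0037), *JDP2*, a bZIP factor related to ATF3 (2.20, adjusted p = 0.0058), and *SLC38A2*, an amino acid transporter (0.98, adjusted p = 0.0071). The response of 15 targets was lower in KMS11 than in H929 and that of 0 was higher, beside 11.5% and 11.7% of all tested genes, and *SLC38A2* was among those lower (-0.63, adjusted p = 0.021). At an unadjusted p under 0.05, 0 targets were lower in KMS11 or across both lines, and the response of 2 was higher in KMS11 than in H929. DESeq2 called 0, 0 and 1. Left without an H929 library, the 16 calls across both lines became 6 (ethanol replicate 1), 5 (ethanol replicate 2), 5 (fluvastatin replicate 1) or 8 (fluvastatin replicate 2). The 7 calls in KMS11 became 1 on leaving out its ethanol replicate 1 and 0 on leaving out its ethanol replicate 2. TGATGNAA was found in 36.4% of the windows of the 44 targets.

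The 16 genes of eIF2 signalling went both ways in H929. Across both lines 1 was higher and 4 were lower (median -0.14), beside 6.5% and 3.93% of all tested genes. In H929 3 were higher and 6 lower (-0.12), beside 22.7% and 19.3% of all tested genes. In KMS11 1 was higher and 0 were lower (-0.15), beside 2.58% and 0.533%. The gene higher across both lines was *EIF2AK3*, which encodes PERK, the eIF2α kinase of the endoplasmic reticulum. In H929 it rose by 1.60 on the log2 scale, from 632 ± 5.78 to 1912 ± 110 CPM (SD, n = 2, adjusted p = 2.6e-05 in edgeR). In KMS11 it rose by 1.46, from 133 ± 9.09 to 366 ± 79.3 CPM (SD, n = 2, adjusted p = 0.00045 in edgeR). *EIF2AK2*, the kinase PKR that responds to double-stranded RNA, fell by 0.42 on the log2 scale across both lines (adjusted p = 0.028). *EIF2B3* fell by 0.58 (adjusted p = 0.028) and *EIF2B5* fell by 0.38 (adjusted p = 0.031), both subunits of the exchange factor that recharges eIF2. Of the 4 lower calls, 0 were left without any 1 of the H929 libraries and 2 without KMS11 ethanol replicate 2. The 3 higher calls in H929 became 1 without its ethanol replicate 1 or its fluvastatin replicate 2. In KMS11 3 genes were lower at an unadjusted p under 0.05 and 0 with DESeq2, and without its fluvastatin replicate 2 edgeR called 2 higher and 2 lower.

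The other arms of the unfolded protein response also went both ways in H929. Of 18 genes of the ATF6 and XBP1 arms, 5 were higher and 10 lower in H929 (median -0.33), beside 22.7% higher and 19.3% lower of all tested genes. In KMS11 0 were higher and 1 lower (-0.06), beside 2.58% and 0.533%. Across both lines *XBP1* itself, the transcription factor of the plasma cell secretory programme, fell by 0.37 on the log2 scale (adjusted p = 0.015), and *HSP90B1*, the chaperone GRP94, fell by 0.42 (adjusted p = 0.036). *ERN1*, which encodes the XBP1-splicing enzyme IRE1α, rose by 0.73 (adjusted p = 0.028), with the larger part in H929 (1.11 against 0.34, adjusted p of the difference 0.0065). Without any 1 of the H929 libraries the 1 higher call of this list across both lines was lost, and of the 2 lower calls 1 was left without H929 fluvastatin replicate 2 and 0 without the others. Without KMS11 fluvastatin replicate 1 the list had 4 higher, and without KMS11 fluvastatin replicate 2 it had 6 lower. The 10 lower calls in H929 became 5 without its fluvastatin replicate 2, and its 5 higher calls became 3 without its ethanol replicate 1. In KMS11 1 gene was higher at an unadjusted p under 0.05 and 0 with DESeq2.

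*ATF3* is also an immediate-early gene. Of the 12 other immediate-early genes tested, 5 were higher and 1 lower in H929 (median 0.62), beside 22.7% and 19.3% of all tested genes. In KMS11 2 were higher and 0 lower (0.72), beside 2.58% and 0.533%. The KMS11 median takes in 10 genes that were not called, among them *EGR1* (4.52, SE 1.71) and *FOSL1* (2.23, SE 1.67). In KMS11 the number lower was 0 at an unadjusted p under 0.05 and 0 with DESeq2. *JUN*, a partner of ATF3 in AP-1, rose by 3.65 on the log2 scale in H929, from 4.83 ± 1.11 to 61.2 ± 2.47 CPM (SD, n = 2, adjusted p = 1.9e-06 in edgeR). In KMS11 it rose by 3.06, from 4.45 ± 0.87 to 37.1 ± 2.21 CPM (SD, n = 2, adjusted p = 2.4e-05 in edgeR). *ZFP36*, an mRNA-decay factor, rose by 0.94 across both lines (adjusted p = 0.012) and *IER2* by 0.59 (adjusted p = 0.040). The 5 higher calls in H929 became 3 without its ethanol replicate 2 or its fluvastatin replicate 1. The 2 in KMS11 became 1 without either KMS11 ethanol library or KMS11 fluvastatin replicate 1 and 4 without KMS11 fluvastatin replicate 2.

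**Figure D4:**
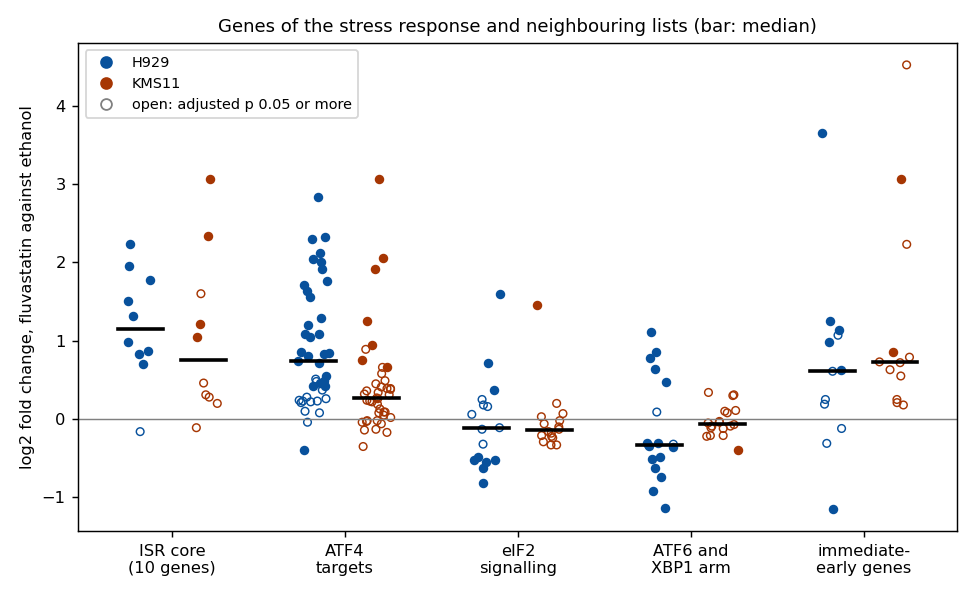
Log2 fold change of fluvastatin against ethanol within H929 (blue) and KMS11 (orange) for each tested gene of the 10-gene ISR core and of 4 neighbouring lists, with 1 point per gene, a bar at the median and filled points where the adjusted p was under 0.05. The medians of the core are 1.15 and 0.76, those of the ATF4 targets 0.74 and 0.27, and those of the ATF6 and XBP1 arms -0.33 and -0.06.

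The genes whose levels followed *ATF4* and *DDIT3* most closely were sought among 8862 protein-coding genes whose mean log2 CPM reached 3, by Pearson's r of log2 CPM over the 8 libraries after the mean of each line was removed. Nearest to *ATF4* were *CCDC174* (0.995), *CBFA2T2* (0.987) and *SWT1* (0.986). Nearest to *DDIT3* were *AP2B1* (0.996), a clathrin adaptor subunit, *MYO1D* (0.995), an unconventional myosin, and *EZR* (0.993), which links actin to the membrane. *EZR* had log2 fold changes of 1.90 in H929 and 0.99 in KMS11, close to the 1.95 and 1.05 of *DDIT3*, while *CCDC174* had 0.22 and 0.09. These are the highest of many values over libraries that share their treatment and line, and they carry no test.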

How the data were processed

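RNA-seq libraries of H929 and KMS11 cells were grouped by the labels into line and treatment, with 2 biological replicates per group according to the study's methods. Libraries were stranded and made from total RNA depleted of ribosomal RNA. The authors deposited raw RSEM expected counts and, beside them, TPM scaled by effective length over all annotated genes. The submitters' processing notes name STAR 2.5.2b, RSEM 1.3.0 and hg38. The strand setting of RSEM is not given in the sources used here. FPKM values were not used.

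Names, biotypes and positions are those of GENCODE release 44, where 57392 of the 58219 identifiers were found, 19683 of them protein-coding. Rounded expected counts entered edgeR 4.0.16 under R 4.3.3. Genes were kept by filterByExpr (minimum count 10, minimum total 15), scaled by TMM and tested by quasi-likelihood. The p values were adjusted by Benjamini-Hochberg over 13129 protein-coding genes, with a threshold of 0.05. Terms for line and treatment gave the response across both lines (common dispersion 0.0316). The responses of each line, their difference and the difference of the lines in ethanol are contrasts of the 4 group means (0.0125). The SE is the size of the log2 fold change divided by the square root of F. Scripts were tested on simulated data. Of 2-fold changes, 80.2% were recovered across both lines, 75.4% within H929, 69.3% within KMS11 and 53.6% for the difference of the responses. False calls made up 4.31%, 5.14%, 8.62% and 6.21% of the calls, in the same order. The chi-square between replicates was 9.92 to 37.7 times its degrees of freedom, so that for well-expressed genes precision is set by replicate spread more than by depth.

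The 10 genes and all lists were chosen with earlier results of these data known. Named genes are the 10, from each list up to 4 past the threshold with the smallest adjusted p across both lines, and the 3 most like *ATF4* and *DDIT3*. Alternatives were DESeq2 1.42.0, its size factors, library size scaling, no filter, a minimum count of 50, all annotated genes, an adjusted p under 0.01, no line term, the mean of both responses, a replicate block, limma 3.58.1 on log2(TPM + 1), leaving out each library, and, chosen after seeing the data, removal of each library's trend with GC content.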

Additional observations from a re-analysis of the deposited data

Results flagged for a closer look

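Among the 10 genes, 4 gave a response to fluvastatin that differed between the lines by edgeR's test of the difference itself, and all 4 had the lower response in KMS11, beside 11.5% of all tested genes lower there and 11.7% higher. The difference of the log2 fold changes, KMS11 minus H929, was -0.89 for *DDIT3* (1.05 against 1.95), -0.85 for *TRIB3* (0.46 against 1.31), -0.64 for *CEBPG* (0.20 against 0.83) and -0.59 for *CEBPB* (0.28 against 0.87). The *CEBPB* difference was called in 6 of 18 alternatives and was lost without any 1 of the 8 libraries. Outlying libraries were not sought within groups, since each holds 2.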

How the results depend on the processing

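With 2 libraries per group, calls near the threshold rest on single libraries, and low counts limit *CHAC1* and *ADM2* in KMS11. In the fits without 1 library the group left with a single sample is assumed to vary like the others. Of 920 values of single genes under the alternatives, 799 kept their direction and their side of the threshold, 80 were no longer past it, 26 were newly past it and 15 changed sign. The 9 calls in H929 held under every alternative run. The cause of the changes below was not tested.

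Across both lines the number of genes called higher was 4 at an adjusted p under 0.01, 1 with no line term and from 4 to 9 without 1 library, beside 9. In KMS11 it was from 1 to 6 without 1 library, beside 4. For the difference of the responses, 1 gene (*CHAC1*) was higher with no filter and with DESeq2, and 0 to 1 without 1 library, beside 0, and the number lower was 2 at an adjusted p under 0.01 and from 1 to 3 without 1 library, beside 4. In ethanol the number higher in KMS11 was 4 with limma on log2(TPM + 1), 1 at an adjusted p under 0.01 and from 1 to 2 without 1 library, beside 2. For the 41 ATF4 targets tested, the number higher across both lines went from 0 with no line term to 28 with the mean of both responses, beside 16, and in KMS11 from 1 with TPM to 12 with the block, beside 7. Over all genes the number higher across both lines was 4 with no line term and 2385 with the mean of both responses, beside 854. With the GC trend removed, 1 gene was lower in H929, *PPP1R15B* at -0.28 (adjusted p = 0.0028, beside 0.087 to 0.36 under the other alternatives).

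Same-numbered libraries deviated together in H929 (r = 0.774 over 5561 genes) and not in KMS11 (r = -0.078), and no label ties a number to a shared culture or day, so the numbers were not taken to pair the samples. With a replicate block, 4 genes were called higher across both lines, without *ATF4* (adjusted p = 0.082), *CEBPB* (0.11), *CEBPG* (0.13), *TRIB3* (0.084) and *CHAC1* (0.052), and 7 in KMS11, and 1 was higher and 5 were lower in the difference, *ATF4* among them (-0.39, adjusted p = 0.027). Over all genes the block called 158 across both lines, beside 1370, and 1637 in KMS11, beside 409.

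The sign changed for the difference of *PPP1R15B* (-0.000815 with DESeq2 size factors, -0.000784 with DESeq2, -0.098 with TPM, and from -0.0054 to 0.10 on leaving out 1 library, with KMS11 fluvastatin replicate 2 the one that turned it), of *CHAC1* (-0.18 with TPM), of *PPP1R15A* (-0.19 with the GC trend removed, and from -0.082 to 0.48 on leaving out 1 library, turned by H929 ethanol replicate 1) and of *ADM2* (from -0.68 to 0.20 on leaving out 1 library, turned by H929 ethanol replicate 2, by H929 fluvastatin replicate 1 and by KMS11 fluvastatin replicate 2). It also changed for *CEBPB* in KMS11 (-0.31 with the GC trend removed) and, in ethanol, for *ATF4* (0.0036 with TPM), *TRIB3* (0.32 with TPM, 0.72 with the GC trend removed) and *CEBPG* (-0.017 with the GC trend removed). The share of calls that were higher was 62.3% across both lines, 29.4% with TPM, 45.9% with the GC trend removed and 90.5% with the block. It was 82.9% in KMS11 there, 57.0% with TPM and 52.1% with the GC trend removed, and in ethanol 49.5% and 72.8% with TPM.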
